A study of Homo sapiens with 8 samples.

Results

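STAT5 feedback genes and PIM kinases were followed across 8 expression arrays of human chronic myeloid leukaemia cells. The 10 genes were taken by symbol from the probe annotation: the kinases PIM1, PIM2 and PIM3, the feedback inhibitors CISH, SOCS1, SOCS2 and SOCS3, the target gene ID1, and the transcription factors STAT5A and STAT5B. All 10 were on the array with 1 probe set each, among 17687 named genes. The cells were K562 and KBM5, a pair of established lines from blast crisis of the disease, which is driven by the fusion kinase BCR-ABL1. Each line was left without drug (control), given OR21 at 100 nM for 3 days, given IM (imatinib, an inhibitor of BCR-ABL1) at 1000 nM for 24 hours, or given OR21 and then IM (combination). OR21 is described by the submitters as a demethylating agent, and its dose in the combination comes from the treatment protocol, since the label of those samples leaves it blank. Each line and treatment had 1 array.

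STAT5 is the main transcription factor of cytokine signalling in blood cell precursors. Janus kinases at cytokine receptors phosphorylate it, and BCR-ABL1 does so without any cytokine. It then forms dimers, enters the nucleus and binds a short palindromic motif, TTCNNNGAA. Among its targets are CISH and the SOCS genes, whose proteins bind active receptors or Janus kinases and damp the signal again. The PIM kinases are also targets. They are active as soon as they are made, so their RNA level has much to do with their activity, and they promote survival and protein synthesis. ID1 is an inhibitor of basic helix-loop-helix transcription factors and has been described as a STAT5 target in leukaemia cells.

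Values are linear probe set intensities, and differences are on the log2 scale. A value counted as above background when it lay over the level that 95% of the 612 negative control probe sets stayed under on the same array, between 161 and 263. Of the 80 values of the 10 genes, 46 did so. Where one side of a comparison was at background, the fold is a lower bound ("at least"). An effect was called at a limma adjusted p (Benjamini-Hochberg over all genes) under 0.05. The effect of a drug in a line is the mean of 2 array pairs, with and without the other drug, and its standard error (SE) comes from how far the drugs depart from adding on the log2 scale, pooled over both lines. No label says that the arrays came from independent cultures. The p-values therefore set an effect against that departure, which may be technical or a real interaction of the drugs. They do not measure the spread of repeated cultures. The SE of a gene leans mostly on all genes, with 8.31 prior against 2 residual degrees of freedom, and the small number of arrays sets the precision. An array measures the RNA of a whole culture, so less RNA per cell and fewer of the cells that hold it cannot be told apart.

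The labels were checked against marker genes. In K562, 7 of 7 measured erythroid markers were above background on at least 3 of 4 arrays, while in KBM5 6 of these 7 were at background on all 4. Of 8 measured myeloid markers, 8 were above background on at least 2 KBM5 arrays and 3 on at least 2 K562 arrays. BCR and ABL1 were above background on all 8 arrays. The T cell genes CD3E, CD3G, CD8A, CD2 and LCK were at background throughout, CD4 was above it on the 4 KBM5 arrays, and the epithelial genes EPCAM and KRT19 were above it on the 4 K562 arrays. Of the B cell genes, MS4A1, CD79B and PAX5 were at background throughout and CD79A was above it on 3 KBM5 arrays. The stromal gene COL1A2 was above background on 4 K562 arrays and 1 KBM5 array. The summed intensity of the erythroid markers was 103704 and 262752 in K562 without IM and 605721 and 646668 with it. That of the myeloid markers was 73018 and 139330 in KBM5 without IM and 376591 and 360000 with it. The sums are led by single genes: HBZ read 467477 on the K562 IM array and LYZ 254951 on the KBM5 IM array. In K562, GATA1 and TFRC rose in 1 IM pair and fell in the other, while the other erythroid markers rose in both. In KBM5, MPO and PRTN3 read lower with IM in both pairs, while the other myeloid markers rose in both. These sums move with IM beside every IM effect given here and with OR21 on the arrays without IM, and their part in the drug effects was not tested.

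**Figure D1:**
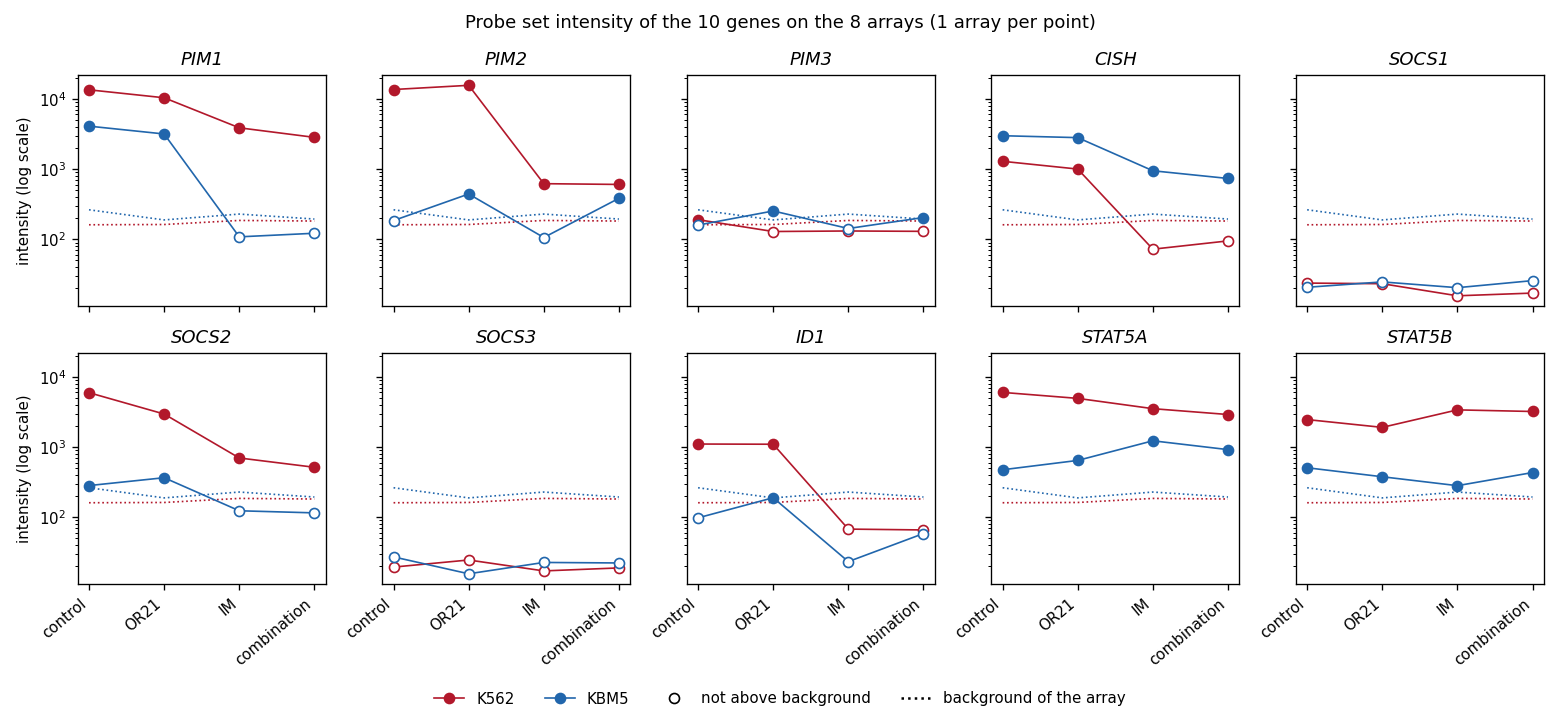
Probe set intensity (log axis) of the 10 genes on the 8 arrays, by treatment, in K562 (red) and KBM5 (blue), with 1 array per point, open points for values not above background and dotted lines for the background of each array. PIM1 drops to background with IM only on the KBM5 arrays, PIM2 has its high values on the 2 K562 arrays without IM, and SOCS1 and SOCS3 stay below background on all 8 arrays.

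Counted over the group, 5 of 10 genes fell with IM in K562 (PIM1, PIM2, CISH, SOCS2 and ID1) and none rose, where 8.05% of all genes fell and 5.34% rose (13.4% in all). In KBM5, 4 of 10 fell (PIM1, CISH, SOCS2 and ID1) and 1 rose (STAT5A), where 10.6% of all genes fell and 10.8% rose (21.4% in all). The median log2 difference of the 10 genes was -1.30 in K562 and -0.41 in KBM5, against 0.07 and 0.03 over all genes. For the difference between lines in the IM effect, 6 of 10 were called: PIM1 in one direction, and PIM2, CISH, SOCS2, ID1 and STAT5A in the other, where 10.2% of all genes were called, 4.9% in the direction of PIM1 and 5.25% in the other. That count was 3 with the K562 control or IM array left out, 4 without K562 OR21, the K562 combination, the KBM5 control or KBM5 IM, and 7 without KBM5 OR21 or the KBM5 combination. In level, 7 of 10 differed between lines without IM, 1 higher and 6 lower in KBM5, where 31.8% of all genes did, 14.4% higher and 17.4% lower. With IM it was again 1 higher and 6 lower, where 37.5% of all genes differed, 17.9% higher and 19.6% lower. Both of those sets hold PIM1, PIM2, CISH, SOCS2, ID1, STAT5A and STAT5B.

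**Figure D2:**
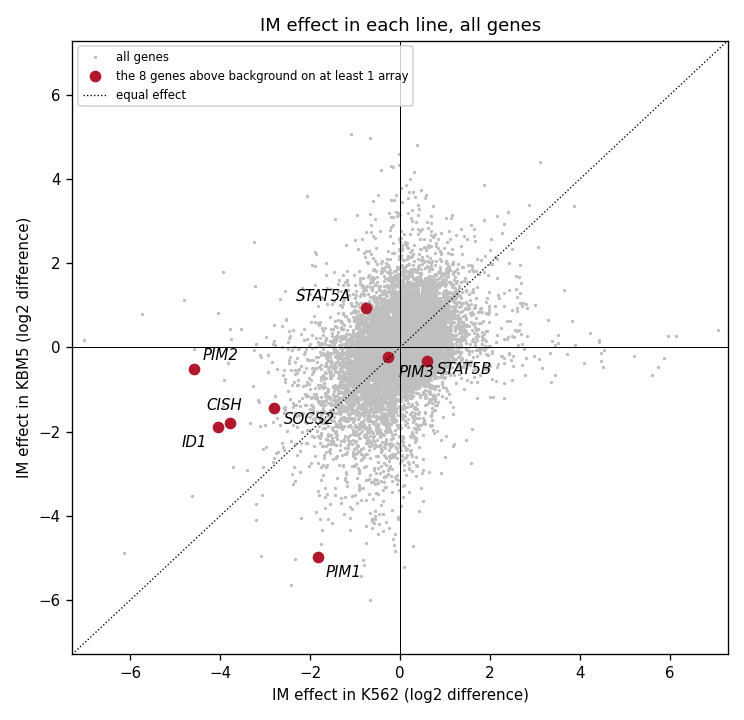
IM effect in K562 (horizontal, log2 difference) and KBM5 (vertical) for all 17687 genes (grey) and the 8 genes above background on at least 1 array (red), with a dotted line of equal effect. PIM1 lies below the line at -1.83 and -4.97, and PIM2, ID1, CISH and SOCS2 lie to its left, with the larger fall in K562. In the KBM5 control PIM2 and ID1 were at background and SOCS2 was just above it, which limits the falls of these genes in KBM5.

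PIM1 fell with IM in both lines and PIM2 fell in K562. The effects differed between lines in opposite directions for the 2 kinases, though PIM2 was already at background in the KBM5 control. PIM1 had an intensity of 13456 in the K562 control, 10367 with OR21, 3872 with IM and 2830.2 with the combination. In KBM5 the same probe set read 4088 in the control, 3162 with OR21, 108 with IM and 122 with the combination. All 4 K562 arrays and the 2 KBM5 arrays without IM were above background, and both KBM5 arrays with IM were not. The sides with and without IM did not overlap in either line, which is weak evidence with 2 arrays a side. PIM1 fell 3.57-fold with IM in K562 (log2 difference -1.83 ± 0.24 SE, limma adjusted p = 0.000947) and at least 17.03-fold in KBM5 (-4.97 ± 0.24, limma adjusted p = 4.29e-06).

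PIM2, a close relative of PIM1 that is typical of blood cells, had its called fall in K562, the line where its signal was high. Its intensity was 13589 in the K562 control and 15588 with OR21, and it dropped to 619.7 with IM and 604 with the combination. In KBM5 it read 185 in the control, 442 with OR21, 106 with IM and 383 with the combination. Thus PIM2 stayed above background on every K562 array, while in KBM5 it was above background only on the 2 arrays with OR21. The fall with IM in K562 was 23.8-fold (-4.57 ± 0.25, limma adjusted p = 6.03e-06). Of the 6190 genes above background on all 4 K562 arrays, 2 had a larger fall. That set leaves out genes that fell to background, and over all genes PIM2 ranked 7 by fall. In KBM5 the difference was -0.50 ± 0.25 and did not pass (limma adjusted p = 0.203, 95% interval -1.06 to 0.05), from a level that was at background in the control.

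The difference between the lines was tested directly. The IM effect in KBM5 minus that in K562 was -3.13 ± 0.34 for PIM1 (limma adjusted p = 0.00054) and 4.07 ± 0.35 for PIM2 (limma adjusted p = 0.000173), and both calls held with each array left out and under every other setting tried. Both sizes are limited by background: PIM1 reached it in KBM5 with IM, and PIM2 in KBM5 had little signal to lose. A PIM2 fall as large as that in K562 could not have been seen in KBM5. The PIM2 line difference therefore does not tell a weaker response from a lack of signal. Without IM, PIM1 was 3.28-fold lower in KBM5 than in K562 (-1.72 ± 0.24, limma adjusted p = 0.000289), and with IM at least 15.7-fold lower (-4.85 ± 0.24, limma adjusted p = 8.13e-08). PIM2 was 50.9-fold lower in KBM5 without IM (-5.67 ± 0.25, limma adjusted p = 4.9e-08) and 3.04-fold lower with it (-1.60 ± 0.25, limma adjusted p = 0.000389). These 2 PIM2 folds are approximate, since 1 KBM5 array of each pair was at background.

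PIM3, the third kinase of the family, was near background everywhere. It read between 129 and 190.3 on the K562 arrays, where only the control was above background, and between 142.5 and 253 on the KBM5 arrays, where the 2 arrays with OR21 were. Those 2 arrays had lower backgrounds (189 and 194) than the KBM5 control (263) and KBM5 IM (229). Its IM difference in KBM5 was -0.24 ± 0.24 (limma adjusted p = 0.594), and its line difference in IM effect was 0.03 ± 0.35 (limma adjusted p = 0.978, 95% interval -0.74 to 0.80). The second of these changed sign after quantile normalization (-0.06).

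**Figure D3:**
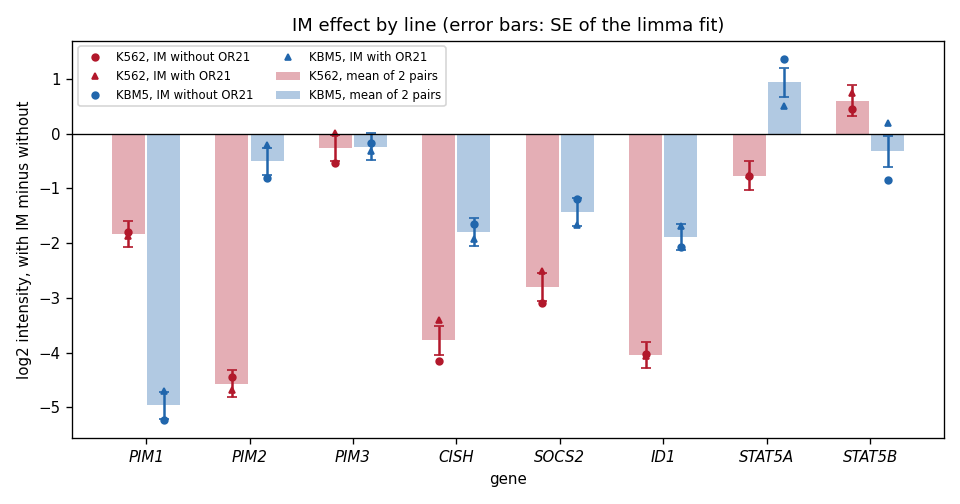
Log2 intensity with IM minus without it for the 8 genes above background on at least 1 array, in K562 (red) and KBM5 (blue). Bars are means of 2 array pairs with the SE of the limma fit, circles are the pair without OR21 and triangles the pair with OR21. PIM1 is at -1.83 in K562 and -4.97 in KBM5, and PIM2 at -4.57 and -0.50.

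The promoters of the 2 contrasted kinases are shown because a demethylating agent was used and neither window holds the STAT5 motif. The RefSeq table (GRCh38.p14) gives 300 bases around each gene start, 250 before it and 50 after, and holds windows for 9 of the 10 genes. SOCS2 had none. The 250 bases before the start are printed from 5′ to 3′ on the strand of the gene, with each CpG in capitals, for PIM1 (chr6:37169902-37170151, plus strand) and PIM2 (chrX:48919025-48919274, minus strand).
PIM1: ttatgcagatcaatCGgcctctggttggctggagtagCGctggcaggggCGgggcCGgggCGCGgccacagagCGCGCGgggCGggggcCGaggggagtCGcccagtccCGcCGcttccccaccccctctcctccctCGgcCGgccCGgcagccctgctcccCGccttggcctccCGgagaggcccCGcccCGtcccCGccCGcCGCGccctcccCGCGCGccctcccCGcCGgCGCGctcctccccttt
PIM2: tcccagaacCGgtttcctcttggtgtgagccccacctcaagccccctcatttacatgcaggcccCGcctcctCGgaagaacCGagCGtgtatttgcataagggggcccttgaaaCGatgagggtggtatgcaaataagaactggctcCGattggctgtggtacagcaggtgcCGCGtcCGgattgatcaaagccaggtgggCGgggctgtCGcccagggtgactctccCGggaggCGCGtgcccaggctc
The whole PIM1 window holds 39 CpG and the whole PIM2 window 23, against a median of 14 over 35116 windows, and 92.4% and 66.1% of windows hold no more CpG than these. No methylation was measured here.

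Of the feedback inhibitors, CISH and SOCS2 fell with IM in both lines, and SOCS1 and SOCS3 were not detected. CISH, whose protein binds phosphorylated cytokine receptors and blocks the docking of STAT5, read 1291 in the K562 control, 1001 with OR21, 72.3 with IM and 94.9 with the combination. In KBM5 it read 2986, 2805, 946 and 735 in the same order. It was above background on every array except the 2 K562 arrays with IM. CISH fell at least 6.18-fold with IM in K562 (-3.78 ± 0.26, limma adjusted p = 2.94e-05) and 3.47-fold in KBM5 (-1.79 ± 0.26, limma adjusted p = 0.000743).

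CISH was the 1 gene of the group called higher in KBM5 than in K562. Without IM it was 2.55-fold higher (1.35 ± 0.26, limma adjusted p = 0.00228), and with IM at least 4.54-fold higher (3.33 ± 0.26, limma adjusted p = 2.19e-06). The first of these calls was lost without the K562 OR21 array (0.97, limma adjusted p = 0.118, over a range of 0.000452 to 0.118 across all alternatives). The IM effect differed between lines by 1.98 ± 0.37 (limma adjusted p = 0.00752). Without the K562 control or the array of K562 with IM that difference was 1.60 and no longer called (limma adjusted p = 0.104, over a range of 0.00129 to 0.104 across all alternatives).

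The CISH promoter is shown because it is the 1 promoter with the STAT5 motif among the 9 genes that had a window. The 250 bases before its start (chr3:50611775-50612024, minus strand, GRCh38.p14) are printed from 5′ to 3′ with each match to TTCNNNGAA in capitals. The motif was searched on both strands and is its own reverse complement.
CISH: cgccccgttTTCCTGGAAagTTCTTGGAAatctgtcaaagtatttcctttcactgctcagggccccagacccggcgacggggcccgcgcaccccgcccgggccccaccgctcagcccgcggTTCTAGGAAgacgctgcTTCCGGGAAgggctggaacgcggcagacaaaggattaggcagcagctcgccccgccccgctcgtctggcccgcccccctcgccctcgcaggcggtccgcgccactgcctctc
The 4 matches are TTCCTGGAA, TTCTTGGAA, TTCTAGGAA and TTCCGGGAA, whose first bases lie 241, 230, 129 and 112 bases before the start, and they do not overlap. Of all 35116 windows, 7.66% hold at least 1 match and 0.0199% (7 windows) hold 4 or more. None of the other 11 windows of the 9 genes held these letters. A match is a description of the sequence, and no binding was measured.

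SOCS2, which encodes a ubiquitin ligase adaptor that limits growth hormone signalling, read 5947 in the K562 control, 2953 with OR21, 699 with IM and 515 with the combination. In KBM5 the control read 283 and OR21 366, both above background, while IM read 124 and the combination 116, both below it. Neither line had overlapping sides, which again is weak evidence with 2 arrays a side. SOCS2 fell 6.98-fold with IM in K562 (-2.80 ± 0.26, limma adjusted p = 0.000123) and at least 1.52-fold in KBM5 (-1.43 ± 0.26, limma adjusted p = 0.00255). It was 13.03-fold lower in KBM5 than in K562 without IM (-3.70 ± 0.26, limma adjusted p = 1.26e-06) and at least 2.84-fold lower with it (-2.33 ± 0.26, limma adjusted p = 2.89e-05). In the KBM5 control SOCS2 was just above background (283 against 263), so a fall as large as that in K562 could not have been seen there. With that limit, the difference between lines in the IM effect was 1.38 ± 0.36 (limma adjusted p = 0.0383). That call was lost with the K562 control or IM array left out (1.09, limma adjusted p = 0.302), without K562 OR21 or the K562 combination (1.66, limma adjusted p = 0.0934), without the KBM5 control or KBM5 IM (1.14, limma adjusted p = 0.114) and after quantile normalization (1.09, limma adjusted p = 0.0868), over a range of 0.0179 to 0.302 across all alternatives.

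SOCS1 and SOCS3, which inhibit Janus kinases directly, read between 15.7 and 25.8 and between 15.7 and 27.3 on the 8 arrays. All of these values were below background, so no difference is given for either gene.

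ID1 fell with IM in K562, and in KBM5 it was too close to background for a fold. It read 1104 in the K562 control and 1097 with OR21, against 67.9 with IM and 66.0 with the combination, both at background. In KBM5 it read 98.2 in the control, 189.8 with OR21, 23.4 with IM and 58.7 with the combination, and only the OR21 array was above background, by a narrow margin (background 189). ID1 fell at least 5.99-fold in K562 (-4.04 ± 0.24, limma adjusted p = 1.04e-05). The test also called the difference in KBM5 (-1.88 ± 0.24, limma adjusted p = 0.000297), where no fold can be given. Without IM, ID1 was 8.06-fold lower in KBM5 than in K562 (-3.01 ± 0.24, limma adjusted p = 3.33e-06), with 1 of the 2 KBM5 arrays at background, so that the size is approximate. The line difference in IM effect was 2.16 ± 0.33 (limma adjusted p = 0.00282), and it was called with each array left out. As the KBM5 control was already at background, an ID1 fall as large as that in K562 could not have been seen in KBM5. The ID1 line difference therefore does not tell a weaker response from a lack of signal. With IM, both lines were at background, and the difference of -0.85 ± 0.24 (limma adjusted p = 0.0146) gives no fold. That last call was lost without K562 IM (-0.84, limma adjusted p = 0.158), the K562 combination (-0.87, limma adjusted p = 0.144) or KBM5 IM (-0.67, limma adjusted p = 0.135), over a range of 0.00683 to 0.158 across all alternatives.

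The transcription factor genes themselves were lower in KBM5 than in K562, with and without IM. STAT5A read 6003 in the K562 control, 4933 with OR21, 3521 with IM and 2907 with the combination, and in KBM5 475, 645, 1228 and 919. STAT5B, its close paralog, with which probe sets may cross-hybridise, read 2462, 1907, 3384 and 3209.8 in K562 and 507, 378, 282 and 434 in KBM5. Every value of both genes was above background, and the lowest K562 value of each gene exceeded its highest KBM5 value. Without IM, STAT5A was 9.83-fold lower in KBM5 (-3.30 ± 0.26, limma adjusted p = 3.97e-06) and STAT5B 4.95-fold lower (-2.31 ± 0.28, limma adjusted p = 0.000102). With IM, the line difference was 3.01-fold for STAT5A (-1.59 ± 0.26, limma adjusted p = 0.000626) and 9.43-fold for STAT5B (-3.24 ± 0.28, limma adjusted p = 5.27e-06).

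STAT5A rose 1.92-fold with IM in KBM5 (0.94 ± 0.26, limma adjusted p = 0.0279), and its difference in K562 was -0.77 ± 0.26, not called (limma adjusted p = 0.0876). The KBM5 call was lost without the KBM5 control or KBM5 IM array (0.51, limma adjusted p = 0.331) and, by a small margin, without the K562 control, K562 OR21, K562 IM or K562 combination array (0.94, limma adjusted p = 0.0533 in each case), over a range of 0.00648 to 0.331 across all alternatives. The K562 difference was called without any 1 of the KBM5 control, OR21, IM or combination arrays (limma adjusted p = 0.0337 in each case), among genes above background on at least 2 arrays (0.0477) and with an intensity trend (0.0324), over a range up to 0.465. The IM effect of STAT5A differed between lines by 1.71 ± 0.37 (limma adjusted p = 0.0167). This call was lost with the K562 control or IM array left out (1.70, limma adjusted p = 0.119), without K562 OR21 or the K562 combination (1.71, limma adjusted p = 0.11) and without the KBM5 control or KBM5 IM (1.28, limma adjusted p = 0.0614), over a range of 0.00223 to 0.119.

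STAT5B passed no test of a drug effect. Its IM difference was 0.61 ± 0.28 in K562 (limma adjusted p = 0.207) and -0.32 ± 0.28 in KBM5 (limma adjusted p = 0.51), where its pairs gave -0.85 without OR21 and 0.20 with it. The difference between lines was -0.93 ± 0.40 (limma adjusted p = 0.197), and -1.45 and called (limma adjusted p = 0.0381, over a range of 0.0381 to 0.59) without the KBM5 OR21 or combination array.

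**Figure D4:**
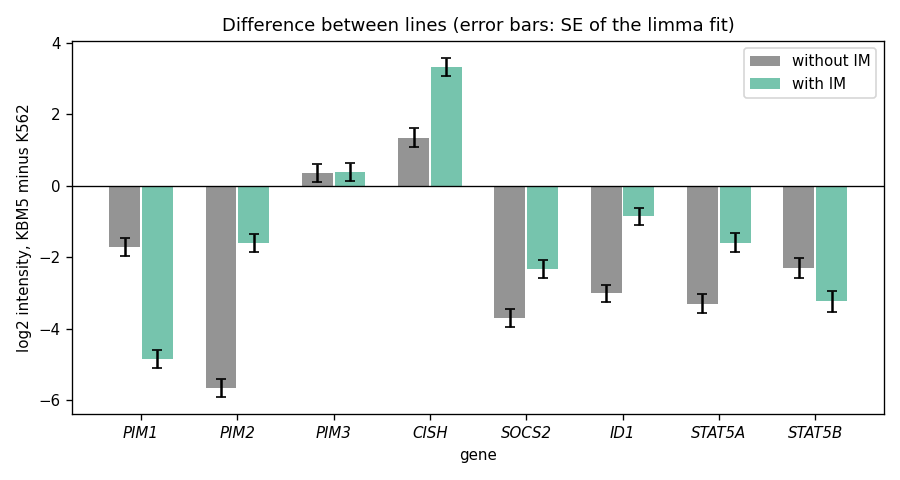
Log2 intensity in KBM5 minus K562 for the 8 genes above background on at least 1 array, over the 2 arrays of each line without IM (grey) and the 2 with IM (green), with the SE of the limma fit. CISH is the gene with called values above 0 (1.35 and 3.33), and PIM1 and PIM2 change places: -1.72 and -5.67 without IM, -4.85 and -1.60 with it.

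OR21 changed 1 of the 10 genes, PIM2 in KBM5. The 2 KBM5 arrays with OR21 read 442 and 383, and the 2 without it read 185 and 106, both at background. PIM2 rose at least 1.67-fold (1.56 ± 0.25, limma adjusted p = 0.0269), where 0.486% of all genes rose and 0.0565% fell (0.543% in all). Beside it, the myeloid marker MPO read 65.8 and 35.9 on the KBM5 arrays without OR21 and 11442 and 5283 on those with it. The other myeloid markers did not share 1 direction. AZU1 and PRTN3 read higher with OR21 in both KBM5 pairs and CSF3R lower in both. SPI1, PTPRC, CEBPA and LYZ went up in 1 pair and down in the other. The part of these markers in the PIM2 result was not tested. The call was lost with log2(value + 16) (1.45, limma adjusted p = 0.0854), without the KBM5 IM or combination array (1.26, limma adjusted p = 0.158) and without the K562 control, K562 OR21, K562 IM or K562 combination array (1.56, limma adjusted p = 0.0587 in each case), over a range of 0.00343 to 0.158. The difference between lines in this OR21 effect was 1.47 ± 0.35 and was not called (limma adjusted p = 0.287). For that difference limma called none of the 10 genes and 0.102% of all genes, 0.0452% higher and 0.0565% lower in KBM5, and 4 of the 10 had an unadjusted p under 0.05, as did 7.64% of all genes. In K562, limma called none of the 10 genes for OR21, where 0.0905% of all genes were called. At an unadjusted p under 0.05 there was 1, where 4.88% of all genes were. This was SOCS2, which read lower with OR21 in both pairs (log2 differences of -1.01 without IM and -0.44 with it, limma adjusted p = 0.863). In KBM5 3 had an unadjusted p under 0.05, where 12.6% of all genes did: PIM2, PIM3 (0.59 ± 0.24, limma adjusted p = 0.358) and ID1 (1.14 ± 0.24, limma adjusted p = 0.0811). No fold can be given for PIM3 or ID1, since both KBM5 arrays without OR21 were at background.

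The combination can be set beside the control as single arrays, with no replicate check. In K562 it was 4.75-fold lower for PIM1, 22.5-fold for PIM2, 11.5-fold for SOCS2, at least 7.09-fold for CISH and at least 6.06-fold for ID1. In KBM5 it was at least 21.0-fold lower for PIM1, 4.06-fold for CISH and at least 1.46-fold for SOCS2, and PIM2 was at least 1.46-fold higher, since its control array was at background. The IM pair with OR21 minus the IM pair without it, a measure of how far the drugs depart from adding, was -0.08 for PIM1 and -0.23 for PIM2 in K562, with all values above background. In KBM5 both departures include values at background, and none is given. The farthest from 0 among the other genes above background on all 4 arrays of a line was STAT5B in KBM5, at 1.05.

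Other genes of the pathway were counted from lists that leave out the 10 genes. The rest of the SOCS family, SOCS4 to SOCS7, rose in KBM5 with IM in 3 of 4 genes, where 10.8% of all genes rose: SOCS5 2.30-fold (1.20 ± 0.23, limma adjusted p = 0.00419), SOCS4 (1.15 ± 0.25, limma adjusted p = 0.00829) and SOCS6 at least 1.56-fold (1.07 ± 0.27, limma adjusted p = 0.0155). In K562, 1 of the 4, SOCS4, fell (-1.24 ± 0.25, limma adjusted p = 0.00971), where 8.05% of all genes fell. The difference between lines was called for 3 of the 4, where 10.2% of all genes were called, namely SOCS4 (2.40 ± 0.36), SOCS5 (1.83 ± 0.33) and SOCS6 (1.46 ± 0.38), with limma adjusted p between 0.00233 and 0.0356. Thus CISH and SOCS2 fell in both lines, while SOCS4, SOCS5 and SOCS6 rose in KBM5.

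Of the Janus kinases, 3 of 4 rose in KBM5, where 10.8% of all genes rose, namely JAK2 at least 1.77-fold (1.87 ± 0.24), JAK1 2.78-fold (1.48 ± 0.28) and TYK2 2.02-fold (1.01 ± 0.24), with limma adjusted p between 0.000331 and 0.0117. In K562 JAK2 rose 2.39-fold (1.25 ± 0.24, limma adjusted p = 0.00674) and JAK1 fell 2.01-fold (-1.01 ± 0.28, limma adjusted p = 0.0365), where 5.34% of all genes rose and 8.05% fell. These shares, and the 10.6% of all genes that fell in KBM5, stand also beside the STAT and ID genes. Of 3 other STAT genes measured, STAT6 (1.44 ± 0.25, limma adjusted p = 0.00188) and STAT3 (1.02 ± 0.26, limma adjusted p = 0.0177) rose in KBM5, and STAT3 fell in K562 (-1.51 ± 0.26, limma adjusted p = 0.00395). Of the relatives of ID1, ID2 rose 6.59-fold in KBM5 (2.72 ± 0.45, limma adjusted p = 0.00158), and ID3 fell in K562 at least 1.08-fold (-1.77 ± 0.36, limma adjusted p = 0.01) and in KBM5 from background to background (-1.54 ± 0.36, limma adjusted p = 0.0117).

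Upstream, the list of 17 measured receptors and ligands that signal through STAT5, of which TSLP is a ligand, had 11 genes at background on all 8 arrays. In K562 the common cytokine receptor chain IL2RG fell (-2.48 ± 0.29, limma adjusted p = 0.000487) and the erythropoietin receptor EPOR rose (1.53 ± 0.24, limma adjusted p = 0.0022). Of all genes in K562, 8.05% fell and 5.34% rose. In KBM5 5 of 17 rose and none fell, where 10.8% of all genes rose and 10.6% fell, with the granulocyte colony-stimulating factor receptor CSF3R first (3.49 ± 0.27, limma adjusted p = 1.76e-05), from a level above background on 1 of 2 arrays. The calls of IL7R (2.48 ± 0.28) and CSF2RA (2.04 ± 0.36) in KBM5 lay at background on both sides, and IL3RA (1.54 ± 0.39) reached 1 of 2 arrays above it, so none of these 3 has a fold. Their limma adjusted p lay between 0.000162 and 0.0161. Among 15 other negative regulators of the pathway, 2 rose and 3 fell in K562, where 5.34% of all genes rose and 8.05% fell. In KBM5 6 rose and 2 fell, where 10.8% rose and 10.6% fell, with PTPRC (CD45, a receptor phosphatase) 5.25-fold higher (2.39 ± 0.29, limma adjusted p = 0.000238) PIAS1 3.30-fold higher (1.72 ± 0.23, limma adjusted p = 0.000462), the ubiquitin ligase CBLB at least 2.87-fold higher (1.69 ± 0.24, limma adjusted p = 0.0007) and SPRY1 lower (-2.33 ± 0.27, limma adjusted p = 0.000178). In K562, DUSP1 (1.05 ± 0.26) and CBLB (0.91 ± 0.24) rose, CBL (-0.98 ± 0.26) fell, and SPRY2 (-0.85 ± 0.24) was called with both sides at background, at limma adjusted p between 0.0226 and 0.04. The call of DUSP1 in KBM5 also lay at background on both sides.

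Downstream, 19 further genes described as STAT5 targets included 9 that fell and none that rose in K562, where 8.05% of all genes fell, and 6 that fell and 4 that rose in KBM5, where 10.6% fell and 10.8% rose. Among these falls, that of CDKN1A in K562 and that of CCND1 in KBM5 lay at background on both sides. In K562 the cyclin genes CCND1 (at least 2.43-fold, -3.93 ± 0.28) and CCND2 (5.87-fold, -2.55 ± 0.26), MYC (-2.33 ± 0.25) and the survival gene BCL2L1 (-2.20 ± 0.24) fell most, with limma adjusted p between 3.78e-05 and 0.000318. In KBM5 the transferrin receptor TFRC fell 10.8-fold (-3.44 ± 0.25), MYC 4.88-fold (-2.29 ± 0.25) and CCND3 3.18-fold (-1.67 ± 0.23), and the repressor BCL6 rose at least 4.46-fold (2.99 ± 0.23), with limma adjusted p between 1.54e-05 and 0.00053. GFI1 (1.28 ± 0.35), MCL1 (1.17 ± 0.27) and SP1 (1.05 ± 0.24) rose in KBM5 as well, and MCL1 fell in K562 (-1.72 ± 0.27). The median of the list was -0.05 in K562 and -0.38 in KBM5, against 0.07 and 0.03 over all genes.

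The genes with profiles most like those of PIM1, PIM2 and CISH were ranked by Pearson correlation of log2 intensity over the 8 arrays, among 6167 other genes above background on at least 4 arrays and with a log2 range of at least 1. The arrays share 2 lines and the drug treatments, so this is a description of shared pattern. For PIM1 they were NUTF2 (r = 0.998), CACYBP (0.998), VDAC1 (0.996), SNRPF (0.995) and the mitotic kinesin KIF11 (0.994). For PIM2 they were BTBD1 (0.987), C11orf24 (0.981), the thymine DNA glycosylase TDG (0.980), the histone methyltransferase SETD1A (0.978) and ZNF57 (0.978). For CISH they were XPO4 (0.994), LSG1 (0.993), SLC25A32 (0.988), RCHY1 (0.987) and EMG1 (0.986). Within the group, SOCS2 stood 59th in likeness to PIM2 (r = 0.935) and PIM1 stood 1458th (r = 0.693), while CISH had an r of 0.012 with PIM1 and 0.019 with PIM2.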

How the data were processed

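RNA of 8 samples was labelled with biotin and hybridised to 1-colour expression arrays, per the labels. The values deposited by the authors are a linear intensity per probe set, and how they were extracted or normalized is not given in the sources used here. Of 24351 probe sets, 17709 carried 1 gene symbol in the supplied platform annotation, none carried several, and 3739 transcript clusters had no name. For 20 genes with several probe sets the brightest was kept, giving 17687 genes. log2 intensities were fitted, without further normalization, in limma 3.58.1 (R 4.3.3) with a baseline, an OR21 term and an IM term per line, leaving 2 residual degrees of freedom and 8.31 prior ones. P-values were adjusted over all genes. The fit was tested on simulated data. Between 5874 and 7083 genes per array were above background. A bound divides by the lowest signal above background on each array of the dim side.

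The 10 genes, the pathway lists and the markers were chosen with earlier results of these data known, so their counts are descriptions. All 10 genes are named. From each list, called genes were named in order of size, up to 4 per line. Further ones were named where a call lay at background or to complete the STAT5 targets that rose in KBM5. Likeness was computed for PIM1, PIM2 and CISH with 5 genes each. The alternatives were quantile normalization, log2(value + 16), only genes above background on at least 2 arrays, moderation with an intensity trend, averaged probe sets per gene, a common OR21 by IM term, each array left out, and the 99th percentile as background. Promoter sequences are from RefSeq (GRCh38.p14).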

Additional observations from a re-analysis of the deposited data

Results flagged for a closer look

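The IM effect differed between the lines, by a limma test of the difference itself, for 6 of the 10 genes. KBM5 minus K562 was -3.13 for PIM1, 4.07 for PIM2, 1.98 for CISH, 1.38 for SOCS2, 2.16 for ID1 and 1.71 for STAT5A on the log2 scale, with adjusted p of 0.00054, 0.000173, 0.00752, 0.0383, 0.00282 and 0.0167. For PIM1, CISH, SOCS2 and ID1 at least 1 line ended at background with IM, and for PIM2 and ID1 the KBM5 control was there already. The calls of PIM1, PIM2 and ID1 held with each array left out.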

How the results depend on the processing

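No paired analysis was possible because each line and treatment had 1 array, so that no replicate number pairs arrays across groups. The calls of the 10 genes for IM in each line had the same direction in both array pairs and under 6 other settings. Leaving out an array of the same line leaves 1 of these 2 pairs. Leaving out an array of the other line cannot change the effect, only its p-value. Of the other settings, only quantile normalization and log2(value + 16) change the effect itself for these genes. Counts for OR21 moved most: the 16 genes called in K562 became 5 with log2(value + 16), 27 with an intensity trend and 32 with a common OR21 by IM term. The 96 called in KBM5 became 3, 243 and 149, with the 1 call among the 10 genes, PIM2, becoming 0 with log2(value + 16), and the 18 called for the difference between lines became 2 and 43 under the first pair. With 1 array left out, genes called ranged from 454 to 3201 for IM in K562, 2722 to 3245 in KBM5, 611 to 1804 for their difference, 9 to 31 for OR21 in K562, 54 to 157 in KBM5, 6 to 52 for their difference, 3266 to 6401 for the level without IM and 4424 to 7283 with IM. Among the 10 genes, the calls ranged from 5 to 6, 4 to 5, 3 to 7, 0 to 0, 0 to 1, 0 to 0, 6 to 7 and 6 to 7 in that order. Among the differences followed under every setting, those that changed sign were those of STAT5B for IM in KBM5 (-0.85 to 0.20 with 1 array left out) and of PIM3 between lines (-0.24 to 0.30, and -0.056 after quantile normalization), neither called. The OR21 effects of the 10 genes with an unadjusted p of 0.05 or more, and that of IM on PIM3 in K562, were not followed in this way. Among these, the 2 pairs of an effect had opposite signs, so that leaving out 1 array turns the direction, for OR21 on CISH and PIM2 in K562 and on PIM1, SOCS2, STAT5A and STAT5B in KBM5, and for IM on PIM3 in K562. Quantile normalization moved the share of K562 IM calls that were higher from 39.9% to 50.5%. With the 99th percentile as background, 22 in place of 46 of the 80 values were above it. PIM1 was above that level on 6 arrays, STAT5A on 5, CISH on 4, STAT5B on 3, and PIM2 and SOCS2 on 2 each. PIM3, ID1, SOCS1 and SOCS3 were above it on none, so the K562 values of ID1 depend on the level chosen. The cause was not tested. Signal over background limits PIM3, SOCS1 and SOCS3 throughout, and PIM2 and ID1 in KBM5. With IM it also limits PIM1 and SOCS2 in KBM5 and CISH and ID1 in K562.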

Other observations

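Of 19 proteins described as substrates of the PIM kinases, the genes of 5 fell and 2 rose with IM in K562, and 5 fell and 4 rose in KBM5, with medians of -0.21 and 0.13. Over all genes 8.05% fell and 5.34% rose in K562 and 10.6% fell and 10.8% rose in KBM5, with medians of 0.07 and 0.03. MYB, a transcription factor of blood cell precursors, fell 3.98-fold in K562 (-1.99 ± 0.24, limma adjusted p = 0.000513). CDC25A, a phosphatase that drives entry into S phase, fell in K562 (-1.72 ± 0.24, limma adjusted p = 0.00117) and at least 2.76-fold in KBM5 (-4.35 ± 0.24, limma adjusted p = 5.53e-06). EIF4EBP1, a brake on translation, fell 5.82-fold in KBM5 (-2.54 ± 0.24, limma adjusted p = 4.94e-05), and the chaperone gene HSP90AA1 fell 3.02-fold in K562 and 3.08-fold in KBM5. CDC25C fell at least 1.13-fold in KBM5, and the calls of CDKN1A in K562 and NFATC1 in KBM5 lay at background on both sides.

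Among 12 measured genes of BCR-ABL1 and its near partners, 1 rose and 1 fell in K562, and 5 rose and none fell in KBM5, against the same shares over all genes. The Src family kinase gene LYN, linked to imatinib resistance, fell 2.89-fold in K562 (-1.53 ± 0.24, limma adjusted p = 0.00251) and rose 2.63-fold in KBM5 (1.40 ± 0.24, limma adjusted p = 0.00207), a difference between lines of 2.93 ± 0.34 (limma adjusted p = 0.000739). FYN rose 4.51-fold in K562, DOK2 7.45-fold in KBM5, GAB2 at least 1.09-fold in KBM5, and BCR 2.00-fold in KBM5.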
